A study of Mus musculus with 4 samples.

Results

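Transcripts of 10 genes that mark or maintain uterine macrophages were measured in uteri of pregnant mice, with the aim of comparing these cells between WT and Qa2- animals. The genes were taken by name from the 55421 genes of the count tables and were all found there. They comprise the growth factor gene Csf1 and its receptor gene Csf1r, the general macrophage markers Adgre1 (which encodes F4/80) and Cd68, the tissue-resident markers Mrc1, Cd163, Folr2 and Vsig4, and the clearance receptor genes Mertk and Trem2. No member is a marker of recruited monocytes, so a separate list of 13 monocyte genes led by Ccr2 and Ly6c2 served for that side of the comparison. Of the 10 genes, 9 passed the expression filter of 1 CPM (counts scaled to a common library size) or more in 2 or more libraries, and Vsig4 did not.

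The uteri came from 2 WT mice of strain C57BL/6J and 2 Qa2- mice of strain B6.Cg-H2b3/FlaCmwJ, all pregnant at E18.5 from matings within the strain, with 1 RNA library per mouse. The Qa2- strain carries a variant H2 region that lacks Qa-2, a class Ib molecule of the major histocompatibility complex, and it was obtained from another supplier than the WT strain. Each genotype is therefore 1 inbred strain, and a difference in Qa-2, in other genes of the strain or in its origin cannot be told apart. RNA was taken from a weighed piece of each frozen uterus, and neither the part of the uterine horn nor whether the libraries were prepared together is given in the sources used here. The methods describe removal of fetal tissue by dissection where cell suspensions were prepared, and do not restate it for the RNA samples. In the RNA libraries, 6 yolk sac genes summed to 494 CPM in Qa2- replicate 1 against 8.42 to 45.4 CPM elsewhere. Counts of H2-Q6 and H2-Q7, which encode Qa-2, ran from 1192 to 6318 in the WT libraries and from 2 to 4 in the Qa2- libraries. Total counts lay between 33286390 and 41041299 read pairs per library. All levels below are CPM on library sizes scaled by TMM (trimmed mean of M-values, factors from 0.957 to 1.05), on which 3 counts correspond to 0.0747 to 0.0858 CPM.

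Macrophages depend on colony stimulating factor 1, which binds the receptor CSF1R and supports their survival and proliferation. In the pregnant mouse uterus this factor is made in large amounts by the epithelium under the control of ovarian hormones. Resident macrophages of many tissues carry scavenger receptors such as CD163 and the mannose receptor CD206 (Mrc1), whereas monocytes that have recently entered from blood carry CCR2 and Ly6C. Smooth muscle, stromal and epithelial markers of the uterus were abundant in all 4 libraries, with Myh11 between 2307 and 6901 CPM, Col1a1 above it and Krt8 between 429 and 1160 CPM.

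Between WT and Qa2- uteri, 0 of the 9 genes tested passed edgeR's quasi-likelihood test at an adjusted p of 0.05 across 14492 genes, and 0.0% of all genes did. DESeq2 called Cd68 and Trem2, both higher in WT, where it called 2.79% of all genes in this direction and 2.04% as higher in Qa2- uteri. At an unadjusted p under 0.05, 3 of the 9 genes (Cd68, Folr2 and Trem2) were higher in WT, against 8.09% of all genes in this direction, and none was higher in Qa2- uteri, against 7.09%. In 5 of the 9 genes tested (Adgre1, Cd68, Folr2, Mertk and Trem2), and in Vsig4, both WT libraries lay above both Qa2- libraries, an order that 25.4% of all genes tested had. The opposite order was found for Csf1, and for 24.5% of all genes. On CPM without TMM scaling these background shares were 18.7% and 32.0%, and Mertk overlapped between the groups. For 1 gene alone an exact permutation test, two-sided, cannot give a p below 0.33 in groups of 2 mice. Over the 9 genes the log2 fold change, WT over Qa2-, had a median of 0.35, which was 0.089 without WT replicate 2 and 0.86 without Qa2- replicate 1, and over all genes tested it was 0.01. RNA of bulk tissue was sequenced. For any difference in these genes, the number of macrophages, RNA per macrophage and the make-up of the tissue cannot be told apart.

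**Figure D1:**
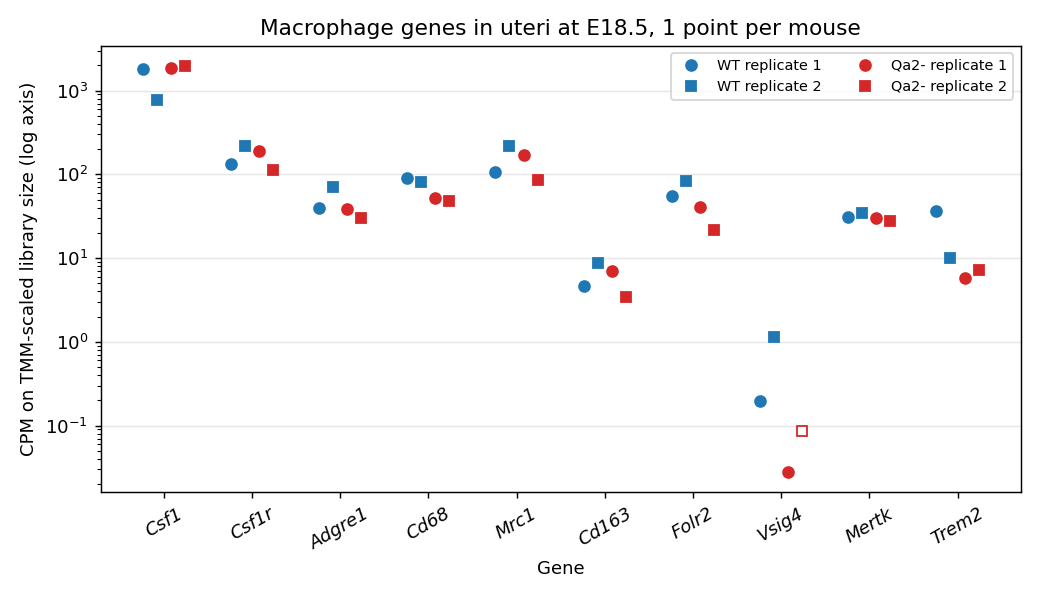
CPM on TMM-scaled library size (log axis) of the 10 macrophage genes, with 1 point per mouse, blue for WT, red for Qa2-, circles for replicate 1 and squares for replicate 2. The open symbol marks Vsig4 in Qa2- replicate 2, where the count was 0, drawn at the level of 3 counts; Cd68 separates by genotype with close replicates, whereas Csf1r, Mrc1 and Cd163 vary about as much within a genotype as between them.

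Per kilobase of exon, Csf1 was the most abundant of the 10 transcripts, with a mean of 242 CPM per kb in WT and 363 CPM per kb in Qa2- uteri. In WT it was followed by Cd68 (68.1 CPM per kb), Folr2 (44.4), Csf1r (30.4), Mrc1 (25.4) and Adgre1 (17.1). Mertk (7.62 CPM per kb), Trem2 (4.74), Cd163 (1.23) and Vsig4 (0.451) were lower. The ranges of Folr2 and Csf1r, of Csf1r and Mrc1, of Mrc1 and Adgre1, and of Mertk and Trem2 overlapped over the WT replicates, but within each WT library the order from Folr2 to Adgre1 was the same, and only Mertk and Trem2 changed places. In Qa2- uteri Csf1r, at 26.5 CPM per kb, stood above Folr2 and Mrc1, both at 20.2, with overlapping ranges of the replicates.

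Csf1 (ENSMUSG00000014599; GRCm38 chromosome 3, 107741048 to 107760469), the ligand of the pathway, stood at 1793 and 763 CPM in WT replicates 1 and 2 and at 1875 and 1955 CPM in Qa2- replicates 1 and 2. Only WT replicate 2 was low, while WT replicate 1 was close to both Qa2- libraries. This gave a log2 fold change of -0.58 with a standard error of 0.48 (adjusted p = 0.588, edgeR), which was -0.097 without WT replicate 2 and -1.35 without WT replicate 1. WT replicate 2 was also the lowest library for 5 of 7 epithelial genes (Krt8, Krt18, Krt19, Epcam and Cdh1), whereas the gland genes Ltf and Foxa2 were lowest in Qa2- replicate 1 and WT replicate 1. Krt8 had 429 CPM there, 759 CPM in the other WT library and 1160 and 977 CPM in the Qa2- libraries. Set against Krt18 within each library, the level of Csf1 per kilobase was 1.01, 0.812, 0.894 and 0.942 times that of Krt18 in WT replicates 1 and 2 and Qa2- replicates 1 and 2. Its highest-to-lowest ratio over the 4 libraries was 1.24 relative to Krt18, 1.36 relative to Cdh1, 1.46 relative to Krt8, 1.75 relative to Epcam and 1.96 relative to Krt19. Relative to Cdh1 the ratio was 8.87 and 9.01 in WT against 7.59 and 6.63 in Qa2- uteri, which is higher in both WT libraries, whereas relative to the other 4 genes the groups overlapped. The part of the epithelial genes in the difference of Csf1 was not tested, and these ratios were computed after the values had been seen. Il34, which encodes the other ligand of CSF1R, was far lower and had 7.15 and 3.61 CPM in WT against 6.90 and 8.23 CPM in Qa2- uteri, again with the lowest value in WT replicate 2.

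Csf1r (ENSMUSG00000024621; chromosome 18, 61100598 to 61132149) had 133 and 217 CPM in WT against 192 and 114 CPM in Qa2- uteri. The groups overlapped, with the highest value in WT and the lowest in Qa2- uteri, and replicates differed by 1.63 times in WT and 1.68 times in Qa2- uteri. Its log2 fold change of 0.20 (standard error 0.36) became -0.20 without WT replicate 2 and -0.13 without Qa2- replicate 2. Within the receptor pathway, 14 of 15 listed genes passed the filter, 0 were called by edgeR (0.0% of all genes) or DESeq2 (2.79% of all genes as higher in WT and 2.04% as higher in Qa2-), and the log2 fold change was above 0 for 7 and below 0 for 7 of them. Spi1, which encodes PU.1, the transcription factor of the myeloid lineage, had 22.7 and 29.2 CPM in WT against 15.4 and 15.4 CPM in Qa2- uteri (log2 fold change 0.76, standard error 0.19, unadjusted p = 0.0107 by edgeR's test across genes). Maf, Irf8 and Cebpa overlapped between the groups. Csf2, another myeloid growth factor gene, was at or below 3 counts in every library.

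Cd68 (ENSMUSG00000018774; chromosome 11, 69664213 to 69666153), which encodes a lysosomal glycoprotein of macrophages, had 89.2 and 81.9 CPM in WT against 52.9 and 48.1 CPM in Qa2- uteri. The replicates of each genotype lay within 1.10 times of each other and the genotypes did not overlap. Means were 85.6 ± 5.15 CPM in WT and 50.5 ± 3.33 CPM in Qa2- uteri (SD, n = 2), and the log2 fold change was 0.76 (standard error 0.15, unadjusted p = 0.00341 and adjusted p = 0.246 in edgeR's test across genes). Leaving out each library in turn moved it between 0.67 and 0.83. In DESeq2's Wald test its adjusted p was 0.0208.

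Adgre1 (ENSMUSG00000004730; chromosome 17, 57358691 to 57483527) had 40.1 and 70.6 CPM in WT against 38.5 and 30.4 CPM in Qa2- uteri. WT replicate 1 was barely above Qa2- replicate 1, and the log2 fold change of 0.68 (standard error 0.31) was 0.22 without WT replicate 2. Adgre1 lies 21.9 Mb from H2-Q7 on the chromosome that carries the H2 region by which the strains differ.

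A list of other general macrophage and myeloid genes held 16 genes. All 16 passed the filter, 14 had a log2 fold change above 0, and the median was 0.70. In the same comparison the median was 0.86 over 6 blood endothelial, 1.80 over 6 lymphatic endothelial, 0.99 over 6 smooth muscle and -0.85 over 7 epithelial genes, whose part in the macrophage values was not tested. Of the 16 genes, edgeR called 0, 10 had an unadjusted p under 0.05 with higher values in WT (8.09% of all genes), and DESeq2 called Lyz2, Tyrobp and Fcer1g (2.79% of all genes). Lyz2, the lysozyme gene of macrophages and other myeloid cells, had 534 and 594 CPM in WT against 293 and 292 CPM in Qa2- uteri (log2 fold change 0.95, standard error 0.21). Aif1, which encodes the macrophage protein IBA1, had 8.87 and 8.70 CPM in WT against 5.27 and 5.03 CPM, and the gene lies 0.263 Mb from H2-Q7. The exceptions were Ptprc, the gene of the pan-leucocyte antigen CD45, with 33.5 and 38.7 CPM in WT against 44.5 and 45.9 CPM in Qa2- uteri, and the endotoxin co-receptor gene Cd14, which was highest in Qa2- replicate 2 at 76.2 CPM and between 17.2 and 25.1 CPM elsewhere. Cx3cr1 was lowest in Qa2- replicate 1 at 5.61 CPM and between 13.1 and 13.9 CPM in the other 3 libraries.

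Among the tissue-resident markers, Mrc1 (ENSMUSG00000026712; chromosome 2, 14229392 to 14332057) had 108 and 216 CPM in WT against 172 and 84.9 CPM in Qa2- uteri. Replicates differed by 2.01 times in WT and 2.03 times in Qa2- uteri, so the groups overlapped, and the log2 fold change of 0.33 (standard error 0.47) was -0.26 without WT replicate 2 and -0.093 without Qa2- replicate 2. Cd163 (ENSMUSG00000008845; chromosome 6, 124304656 to 124330527), which encodes the haemoglobin-haptoglobin scavenger receptor, had 4.66 and 8.72 CPM in WT against 7.02 and 3.46 CPM in Qa2- uteri. Its log2 fold change of 0.35 (standard error 0.48) likewise turned to -0.17 without WT replicate 2 and to -0.074 without Qa2- replicate 2. Csf1r, Mrc1 and Cd163 thus had 1 order of libraries, highest in WT replicate 2, then Qa2- replicate 1, WT replicate 1 and Qa2- replicate 2. Within a library the ratio of Mrc1 to Csf1r per kilobase stayed between 0.675 and 0.901 and that of Cd163 to Csf1r between 0.0321 and 0.0425. Of 6 smooth muscle genes Myh11 had the same order, with 6901, 4574, 3256 and 2307 CPM in these libraries, while the other 5 had the order of Folr2, with WT replicate 1 above Qa2- replicate 1. Of 9 immediate early genes, which respond to handling and other stimuli of tissue, 4 (Fos, Jun, Egr1 and Dusp1) also had the order of Csf1r, with Fos at 77.6, 66.5, 34.6 and 26.0 CPM in these libraries. The sum of 9 trophoblast genes had this order too, at 35.0, 3.83, 0.623 and 0.229 CPM in these libraries. Among the single trophoblast genes only Prl2c2 did, at 0 to 22 counts. The part of smooth muscle, of immediate early genes or of trophoblast tissue in these orders was not tested.

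Folr2 (ENSMUSG00000032725; chromosome 7, 101839988 to 101857194), the gene of folate receptor beta on resident macrophages, had another order of libraries than these 3 genes. It had 54.5 and 82.9 CPM in WT against 40.9 and 21.5 CPM in Qa2- uteri, and both WT libraries were above both Qa2- libraries. Means were 68.7 ± 20.1 and 31.2 ± 13.7 CPM (SD, n = 2), and the fitted log2 difference was 1.14 (standard error 0.37, unadjusted p = 0.0269 and adjusted p = 0.294 in edgeR's test across genes). It was 0.74 without Qa2- replicate 2 and 1.67 without Qa2- replicate 1. Relative to Csf1r in the same library, Folr2 per kilobase was 1.53 and 1.43 in WT and 0.796 and 0.704 in Qa2- uteri, a ratio that did not overlap between the genotypes and that was chosen after its values were seen. Antisense to Folr2, Gm10602 had 82 to 120 counts in each library, which counting by strand kept apart.

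Vsig4 (ENSMUSG00000044206; chromosome X, 96247203 to 96293438), the gene of the complement receptor CRIg, was nearly absent. Its counts were 8 and 43 in WT and 1 and 0 in Qa2- uteri, of which only WT replicate 2 reached 1 CPM. The summed counts of 51 in WT and 1 in Qa2- uteri gave a ratio of 46.2 with an exact 95% interval from 7.92 to 1858, which covers counting error only and rests largely on WT replicate 2. Timd4, Cd5l and Marco, which also mark resident macrophages of the liver, spleen or body cavities, were likewise highest in WT replicate 2, with 124, 95 and 56 counts against at most 32, 22 and 11 counts in any other library. WT replicate 2 was also the library with the highest sum of 9 trophoblast genes, 35.0 CPM against at most 3.83 CPM elsewhere (Gcm1, Ctsq and Hand1 were at 0 in all libraries), and with the largest count of the B-cell gene Ms4a1 at 17. The part of such tissue in the counts of Vsig4 was not tested.

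**Figure D2:**
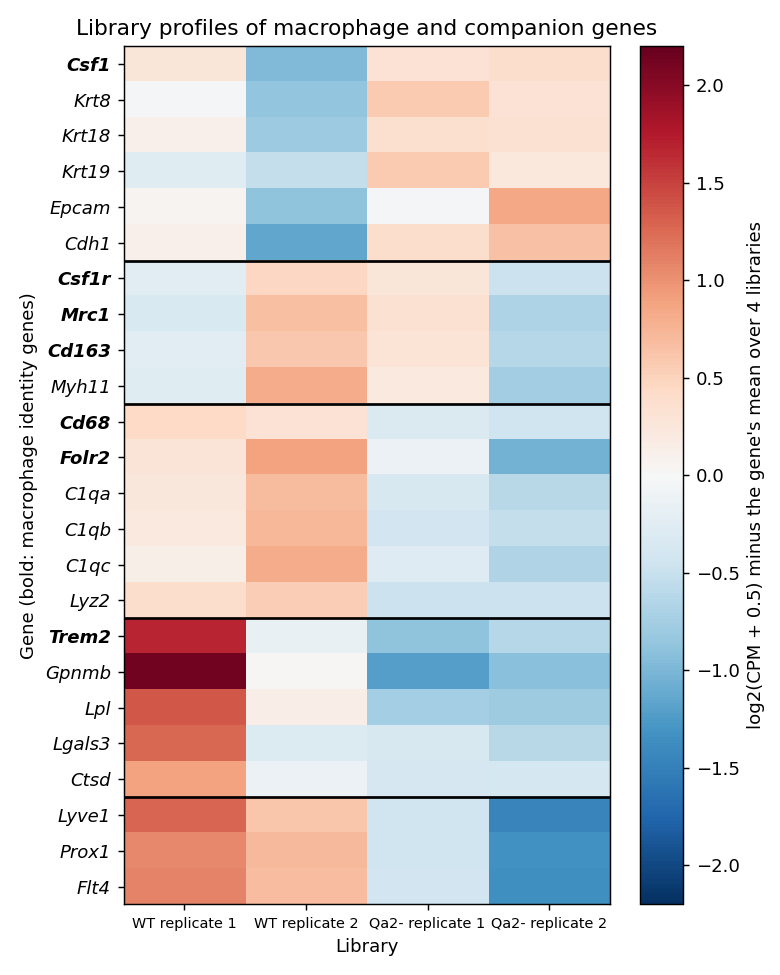
Colour gives log2(CPM + 0.5) minus the mean of each gene over the 4 libraries, from blue (below the mean) to red (above it), with the macrophage identity genes in bold and lines between groups of companion genes chosen after their values were seen. Csf1 and the 5 epithelial genes shown (of 7 listed) are lowest in WT replicate 2. Csf1r, Mrc1 and Cd163 are high in WT replicate 2 and Qa2- replicate 1, and Cd68 and Folr2 are higher in both WT libraries. Trem2 and the companions shown with it, Gpnmb, Lpl, Lgals3 and Ctsd, are highest in WT replicate 1. Of 12 listed companions 9 are, and Spp1, Apoe and Tyrobp are not.

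The clearance receptor Mertk (ENSMUSG00000014361; chromosome 2, 128698956 to 128802894), through which macrophages take up apoptotic cells, varied least of the 10 genes, with 31.1 and 35.0 CPM in WT against 30.3 and 28.1 CPM in Qa2- uteri. Its log2 fold change was 0.18 (standard error 0.16), and 0.089 without WT replicate 2. Gas6, which encodes the bridging ligand of MERTK and AXL, was at 389 and 372 CPM in WT against 200.3 and 152 CPM in Qa2- uteri (log2 fold change 1.11, standard error 0.23, adjusted p = 0.246 by edgeR and 0.000845 by DESeq2 across genes). The related receptor genes went apart, as Axl overlapped between the groups and Tyro3 had 26.0 and 20.2 CPM in WT against 37.4 and 37.2 CPM in Qa2- uteri. Of 13 clearance genes 10 passed the filter, of which 4 had an unadjusted p under 0.05 with higher values in WT (8.09% of all genes) and 1, Tyro3, with higher values in Qa2- uteri (7.09% of all genes).

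Trem2 (ENSMUSG00000023992; chromosome 17, 48346401 to 48354147), a lipid-sensing receptor, had the largest fitted difference of the 9 genes and also the least even WT replicates. WT replicate 1 stood at 36.9 CPM and WT replicate 2 at 9.94 CPM, above 5.83 and 7.12 CPM in Qa2- uteri. The log2 fold change of 1.86 (standard error 0.63, unadjusted p = 0.0301 and adjusted p = 0.2996 in edgeR's test across genes) was 0.59 without WT replicate 1. Without WT replicate 2 it was 2.51 with an adjusted p of 0.0351 by edgeR, where the lone WT library is assumed to vary like the Qa2- libraries. Trem2 lies 12.9 Mb from H2-Q7. WT replicate 1 was also highest for 9 of 12 listed genes of lipid-laden macrophages, with Gpnmb at 157 CPM there, 36.3 CPM in the other WT library and 15.0 and 18.6 CPM in the Qa2- libraries. The exceptions were Spp1, highest in Qa2- replicate 2 at 1083 CPM against 669 CPM in WT replicate 1, Apoe, at 1178 CPM in WT replicate 2 against 1051 CPM in WT replicate 1, and Tyrobp. Tyrobp, which encodes the adaptor of TREM2, was at 34.0 and 34.7 CPM in WT against 16.7 and 20.8 CPM. Per kilobase, Trem2 relative to Tyrobp was 0.147 in WT replicate 1 and between 0.0386 and 0.0470 in the other libraries. Levels in the list of lipid-laden macrophages ranged widely, with Ctsb at 5418 to 9851 CPM and Fabp5 at 24.2 to 43.1 CPM. Csf1r had 114 to 217 CPM. The part of other uterine cells in this list was not tested, and the share of all genes highest in WT replicate 1 is not given here. Of 6 NK cell genes, 3 were highest in WT replicate 1, among them the cytotoxic genes Prf1 and Gzmb at 3140 and 1082 counts against at most 159 and 162 counts elsewhere, and the other 3 (Ncr1, Klrb1c and Gzma) were highest in Qa2- replicate 2.

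**Figure D3:**
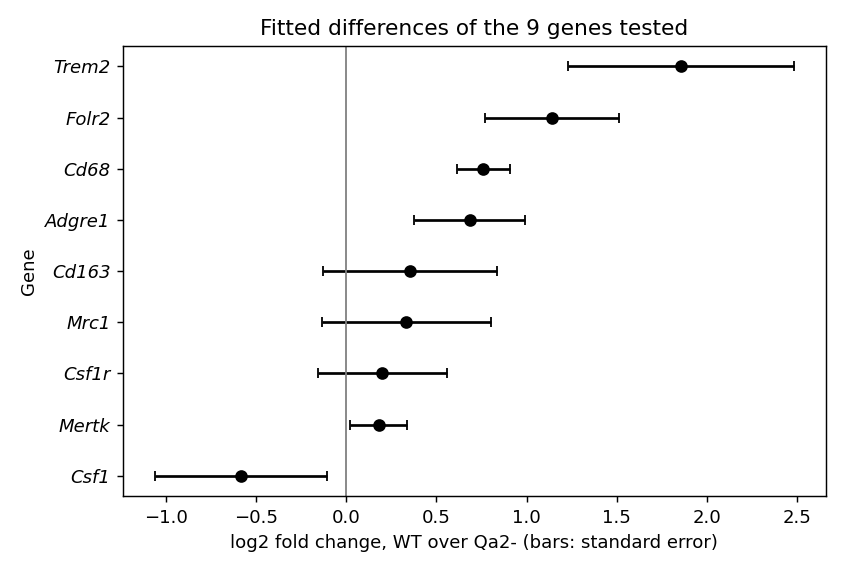
Fitted log2 fold change of WT over Qa2- uteri (horizontal axis) for the 9 macrophage genes that passed the filter, with bars of 1 standard error. Cd68 at 0.76 has the smallest standard error (0.15) and Trem2 at 1.86 the largest (0.63).

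Promoter sequences are given for 5 genes that stand for the patterns above, namely Cd68, Folr2 and Trem2, which were higher in both WT libraries, Mrc1, which shared its order of libraries with Csf1r, and Csf1. They are the bases before the transcription start in RefSeq on GRCm38.p6, read on the strand of the gene, without any base that GENCODE M21 places in an exon of it. RefSeq promoter entries were found for 8 of the 10 genes, and not for Csf1r and Adgre1. Capitals mark GAGGAA, the core of PU.1 sites, and TGCTGA, the half-site of the MAF family, on either strand, which can share the bases GA. The windows are chr11:69666171-69666420 (minus strand) for Cd68, chr7:101845332-101845581 (minus strand) for the start of Folr2 inside the annotated gene (the other of its 2 starts lies at the 5′ end), chr17:48346151-48346400 (plus strand) for Trem2, chr2:14229164-14229391 (plus strand) for Mrc1 and chr3:107760470-107760719 (minus strand) for Csf1.
Cd68: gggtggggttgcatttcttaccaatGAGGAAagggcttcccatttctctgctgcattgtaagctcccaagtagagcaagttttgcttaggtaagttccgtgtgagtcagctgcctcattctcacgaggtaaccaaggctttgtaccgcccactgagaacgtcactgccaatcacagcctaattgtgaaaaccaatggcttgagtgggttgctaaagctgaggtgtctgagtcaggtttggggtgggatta
Folr2: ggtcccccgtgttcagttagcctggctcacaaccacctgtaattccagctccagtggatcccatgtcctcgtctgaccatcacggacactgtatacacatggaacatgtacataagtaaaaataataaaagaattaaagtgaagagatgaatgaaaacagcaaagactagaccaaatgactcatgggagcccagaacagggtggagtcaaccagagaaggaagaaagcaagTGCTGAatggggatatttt
Trem2: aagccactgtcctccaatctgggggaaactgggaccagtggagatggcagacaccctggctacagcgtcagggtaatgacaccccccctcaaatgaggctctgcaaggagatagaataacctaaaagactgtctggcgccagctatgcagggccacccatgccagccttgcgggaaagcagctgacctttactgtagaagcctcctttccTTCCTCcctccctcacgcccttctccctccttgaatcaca
Mrc1: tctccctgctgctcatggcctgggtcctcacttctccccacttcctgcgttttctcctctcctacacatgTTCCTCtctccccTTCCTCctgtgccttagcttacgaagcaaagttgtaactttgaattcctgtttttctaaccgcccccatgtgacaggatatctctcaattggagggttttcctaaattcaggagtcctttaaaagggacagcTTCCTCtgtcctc
Csf1: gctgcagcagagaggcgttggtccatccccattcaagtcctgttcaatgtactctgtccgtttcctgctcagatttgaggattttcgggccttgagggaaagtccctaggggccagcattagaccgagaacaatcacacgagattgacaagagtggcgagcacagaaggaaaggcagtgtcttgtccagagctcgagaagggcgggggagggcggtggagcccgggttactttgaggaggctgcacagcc

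In the windows of the 8 genes, of 228 to 250 bases, GAGGAA was present 3 times for Mrc1, 2 times for Vsig4 and 1 time each for Cd68 and Trem2. It was not among the letters of the windows of Csf1, Cd163, Folr2 and Mertk. TGCTGA was present 1 time at each of both Folr2 starts and in no other window of the 8 genes. Over all 32851 promoter windows of 250 bases in the table, 23.3% held GAGGAA and 16.1% held TGCTGA on either strand. The presence of these letters is a description of the sequence only.

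To set resident against recruited markers, the 4 resident members were joined with 19 other genes of resident macrophages, and 17 of these 23 genes passed the filter. All 17 had a log2 fold change above 0, against 51.1% of all genes tested. Among the genes under the filter, Cd209d was higher in both Qa2- libraries (31 and 26 counts) than in WT (23 and 19 counts). Vsig4, Timd4, Cd209b, Cd5l and Marco were higher in both WT libraries. The log2 fold changes of the 17 ranged from 0.16 for Fcna to 1.85 for Lyve1. Their median was 0.90, against a median of 0.01 over all genes tested. Markers of other tissue parts also lay off this median, with 0.99 over 6 smooth muscle genes (6 above 0, 5 higher in both WT libraries) and -0.85 over 7 epithelial genes (all below 0, of which Foxa2 passed the filter only through the Qa2- libraries), and their part in the values of the resident genes was not tested. For the resident genes, edgeR called 0, 9 had an unadjusted p under 0.05, against 8.09% of all genes, and DESeq2, against 2.79%, called 6 (Lyve1, Cd209f, C1qa, C1qb, Selenop and Ccl8). In 13 of the 17 genes both WT libraries were above both Qa2- libraries, against 25.4% of all genes. The exceptions were Mrc1, Cd163, Stab1 and Fcna. This list, like the members and the other lists, was chosen with earlier results of these data known. These counts therefore describe the list and are not independent support. The genes of the complement component C1q, a product of tissue macrophages, had nearly the same difference, with C1qa at 163 and 223 CPM in WT against 107 and 89.3 CPM in Qa2- uteri (log2 fold change 0.97, standard error 0.23) and log2 fold changes of 0.97 for C1qb and 0.98 for C1qc. The ratio of C1qa to Csf1r per kilobase was 6.77 and 5.70 in WT against 3.11 and 4.35 in Qa2- uteri, whereas that of C1qa to Cd68 overlapped, at 2.202 and 3.29 in WT against 2.46 and 2.24. Cd209f, a lectin gene with close paralogs among which reads may be split, was at 642 and 673 counts in WT and at 317 and 212 counts in Qa2- uteri.

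Lyve1, the hyaluronan receptor gene that marks both a kind of resident macrophage and lymphatic endothelium, had 400 and 250.1 CPM in WT against 121 and 59.9 CPM in Qa2- uteri (log2 fold change 1.85, standard error 0.43). Its ratio to the lymphatic gene Prox1 per kilobase was 23.7, 19.0, 20.6 and 19.6 in the 4 libraries, while its ratio to C1qa ran from 0.239 to 0.875. All 6 genes of the lymphatic endothelium list, Lyve1 included, with a summed level from 781 to 1237 CPM in WT and from 203 to 358 CPM in Qa2- uteri, were higher in both WT libraries. All 6 blood endothelial genes were too, at 917 to 1051 CPM in WT and 448 to 475 CPM in Qa2- uteri, an order that 25.4% of all genes had. The part of endothelium in the values of Lyve1, Stab1 and Mrc1, which endothelial cells can also express, was not tested. Without Lyve1, Stab1 and Selenop the median of the resident list was 0.88.

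Of the 13 genes of recruited monocytes 9 passed the filter, Fcnb was at 0 in every library, and the median log2 fold change was 0.41. This median was 0.16 without Qa2- replicate 1 and 0.75 without Qa2- replicate 2. EdgeR and DESeq2 called 0 of them, and 3 (Ms4a4c, Itgam and Ifitm6) had an unadjusted p under 0.05 with higher values in WT, against 8.09% of all genes. Ccr2, the chemokine receptor of classical monocytes, had 25.7 and 31.1 CPM in WT against 31.5 and 25.2 CPM in Qa2- uteri (log2 fold change 0.00, standard error 0.20). Ly6c2 was low, with 2.49 and 2.12 CPM in WT against 1.55 and 2.29 CPM, and its counts are uncertain because of its near-identical neighbour. Itgam, which encodes CD11b, had 15.2 and 25.3 CPM in WT against 12.3 and 7.32 CPM in Qa2- uteri (log2 fold change 1.04, standard error 0.37). The chemokine genes Ccl2, Ccl7 and Ccl12, whose products attract monocytes through CCR2, had fitted differences from 0.71 to 0.93 on the log2 scale, while Cx3cl1 was at -0.73. Of 11 neutrophil genes 4 passed the filter (S100a9, Csf3r, Mmp9 and Ltf, the last also made by uterine epithelium). S100a9 had 119 and 58 counts in WT against 18 and 80 in Qa2- uteri, Ly6g had at most 2 counts in any library and Ngp was at 0.

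**Figure D4:**
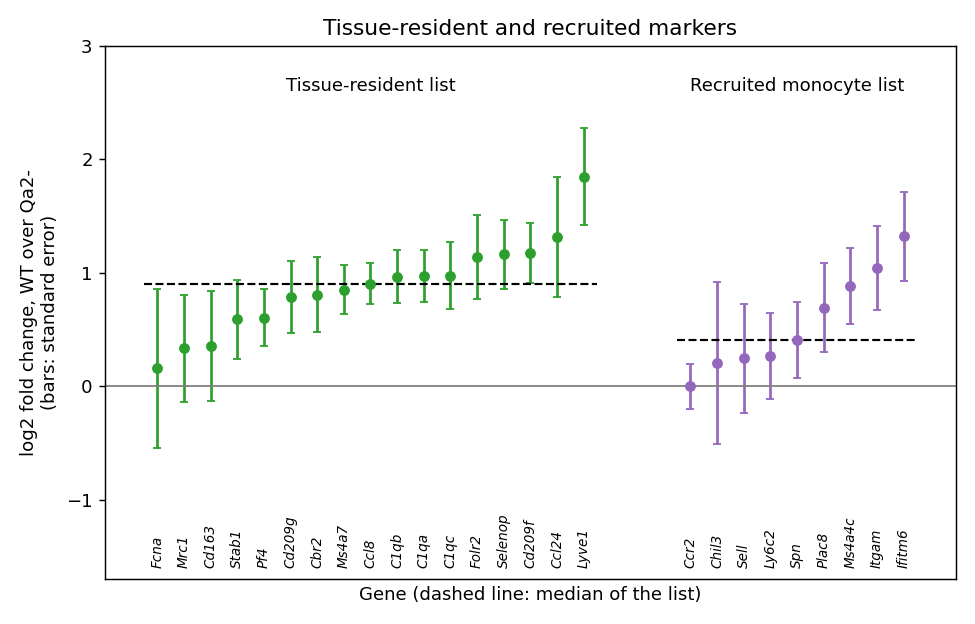
Fitted log2 fold change of WT over Qa2- uteri (vertical axis) with 1 standard error for the genes that passed the filter, 17 of the tissue-resident list (green) and 9 of the recruited monocyte list (purple). Dashed lines give the medians of 0.90 and 0.41, and the recruited list starts at 0.00 for Ccr2.

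The medians of both lists differed by 0.50 on the log2 scale. In single libraries the median log2 CPM of the resident genes exceeded that of the recruited genes by 4.18 and 4.43 in WT and by 4.59 and 3.55 in Qa2- uteri, so that the groups overlapped. This spread, a pooled SD of 0.53 between replicates, is as large as the difference of the list medians, which was 0.047 without WT replicate 2 and 0.090 without Qa2- replicate 2. A shift between resident and recruited markers was thus not resolved with 2 mice per genotype.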

How the data were processed

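Gene expression was measured in 2 WT and 2 Qa2- uteri (groups from the sample labels) with poly(A)-enriched, strand-specific libraries sequenced in read pairs. The deposited values are counts of read pairs per gene, made by the authors with featureCounts 2.0.0 on GRCm38 (reverse strand, both ends mapped, minimum mapping quality 3, pairs with several positions or genes left out) without normalization, and the submitters' processing notes also name STAR 2.7.3a and GRCm38.p6. Pairs shared by paralogs or by overlapping genes on 1 strand were therefore lost. Symbols were taken from GENCODE M21, in which 55240 of 55421 identifiers were found; where a symbol had several identifiers, that with the largest count was used.

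Genes reaching 1 CPM in 2 or more libraries were kept. The methods state this filter, but a larger number of genes left by it, for a reason not given in the sources used here, and name no test. TMM factors and the quasi-likelihood functions glmQLFit and glmQLFTest of edgeR 4.0.16 (R 4.3.3) were used, with Benjamini-Hochberg adjustment over all genes kept and a level of 0.05. Standard errors are the log2 fold change divided by the square root of F. The steps were tested on simulated counts. Depth sets the counting error alone: 1 CPM stands for 35.0 to 40.1 read pairs, and intervals and the floor of 3 counts cover only this error. Libraries of a genotype differed by more than sampling noise (chi-square per gene 241 for WT and 151 for Qa2-). The labels give each library as a separate sample, and p-values measure the spread between these samples.

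Members and gene lists were chosen with earlier results of these data known. Named are all members, up to 3 genes at either end of each list by log2 fold change, and Il34, Csf2, Spi1, Ccr2, Ly6c2, Timd4, Lyve1, C1qa, C1qb, C1qc, Lyz2, Aif1, Cx3cr1 and Ccl2. Other genes named and the within-library ratios were chosen after their values were seen. As alternatives, DESeq2 1.42.0, other scalings and filters, a robust fit, the replicate number as block, and fits without globin and mitochondrial genes or without 1 library were run. Crossed pairing, glmQLFit with legacy = FALSE and lists without genes of other cells were added after the data were seen. Leaving out a library leaves 1 in a group, which is assumed to vary like the others.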

Additional observations from a re-analysis of the deposited data

How the results depend on the processing

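The cause of the changes below was not tested, except where fewer libraries or other genes enter by construction. With DESeq2, 404 genes passed as higher in WT and 296 as higher in Qa2- uteri, among them 2 of the 9 macrophage genes (Cd68 and Trem2), and without a filter edgeR called 47 and 14 genes and none of the macrophage genes, with a median of the recruited list of 0.64 over more genes of it. Same-numbered samples deviated in opposite directions (r = -0.37 over genes), and the numbers were not taken as pairs. With the replicate block edgeR called 2 genes higher in WT, 0 higher in Qa2- uteri and 0 macrophage genes, and with the crossed pairing 0, 0 and 0. EdgeR called 0 genes with upper-quartile scaling, with library totals, with a minimum of 10 counts in each library, with a robust fit, without globin and mitochondrial genes, and with legacy = FALSE. Leaving out each library in turn gave 0 to 45 genes higher in WT, 0 higher in Qa2- uteri and 0 to 1 macrophage genes, and both maxima came without WT replicate 2. The median over the macrophage genes then ran from 0.089 to 0.86, that of the resident list from 0.67 to 1.02, that of the recruited list from 0.16 to 0.75, and their difference from 0.047 to 0.86. Log2 fold changes changed sign for Csf1r (from -0.20 to 0.62 over these fits), Mrc1 (from -0.26 to 0.93) and Cd163 (from -0.17 to 0.95), each without WT replicate 2 or without Qa2- replicate 2, and ran from -1.35 to -0.097 for Csf1 and from 0.59 to 2.51 for Trem2. Under the alternatives with 4 libraries every macrophage gene tested kept its sign, with log2 fold changes of 0.67 to 0.77 for Cd68 and 1.05 to 1.18 for Folr2.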

Other observations

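Genes of 2 further cell types of the immune system were measured, and no difference from the macrophage lists was tested. All 5 mast cell genes had a log2 fold change below 0, with a median of -0.21, and none had an unadjusted p under 0.05 by edgeR's test. Their summed level was 48.4 and 78.7 CPM in WT against 83.6 and 63.8 CPM in Qa2- uteri. Of 8 dendritic cell genes 4 passed the filter, with 2 log2 fold changes above 0 (Zbtb46 at 0.20 and Itgax at 0.26) and 2 below 0. Of the latter, Flt3, the receptor gene of their growth factor, was at 28 and 17 counts in the WT and 64 and 44 counts in the Qa2- libraries and passed the filter only through the latter, so no test is given for it. Cd209a was at 62 and 77 counts in the WT and 98 and 126 counts in the Qa2- libraries (log2 fold change -0.83, standard error 0.36).

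Profiles on the log2 scale, from which the mean of each gene over the 4 libraries was subtracted, were compared with that of Csf1r. Levels therefore did not enter, and Tle4 had 9.15 to 18.1 CPM against 114 to 217 CPM for Csf1r. Of 11631 other genes with a mean of at least 5 CPM, the 5 nearest were Tle4, Sspn, Reep2, Neurl1b and Cacna2d1. Their Euclidean distances from Csf1r ran from 0.031 to 0.077. Cd163 lay at 0.209 with 100 genes nearer and Mrc1 at 0.313 with 302 genes nearer, whereas Folr2 lay at 0.974 with 7731 genes nearer and Cd68 at 0.912 with 6768 genes nearer. With 4 libraries these distances only describe the profiles.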
